A study of Homo sapiens with 39 samples.

Results

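The genes described here are 32 genes of cholesterol and fatty acid synthesis, a given list of 17 enzymes of the sterol pathway, 6 regulators and transport proteins, and 9 enzymes of fatty acid synthesis, elongation and desaturation. Each was represented by the array probe with the highest mean among the probes annotated to it. Probes were found for 30 of the 32, comprising 16 sterol enzymes, all 6 regulators and transport proteins and 8 fatty acid enzymes, among 18555 genes tested. FDFT1 (squalene synthase) and ACSL3 (a long-chain acyl-CoA synthetase) had no named probe and were not analysed here.

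RNA of 2 human lung cancer cell lines was hybridised to 39 Illumina bead arrays, 20 of NCI-H838, a lung adenocarcinoma line, and 19 of NCI-H209, a small cell lung cancer line. Cells received 100 nM DKFZ-608, which, by the labels, inhibits thioredoxin reductase 1 without a covalent bond, dissolved in 6.9 µM cyclodextrin, or the cyclodextrin vehicle alone. In each line the groups were DKFZ-608 at 4, 8 and 24 h, vehicle at 4, 8 and 24 h, and cyclodextrin alone at 0 h. Groups held 3 arrays, except H838 DKFZ-608 at 24 h (2 arrays), H209 DKFZ-608 at 8 h (2 arrays) and H209 vehicle at 8 h (2 arrays). Every array, at 0 h included, thus came from cells given cyclodextrin, an agent known to bind cholesterol, and cells without it were not analysed here. Each tumour type was represented by 1 line, so that tumour type and line cannot be told apart.

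Cholesterol is built from acetyl-CoA through mevalonate, farnesyl diphosphate, squalene and lanosterol, each step catalysed by an enzyme in the membrane of the endoplasmic reticulum or in the cytosol. Fatty acids are built from the same acetyl-CoA by acetyl-CoA carboxylase and fatty acid synthase, then lengthened by elongases and desaturated by desaturases. Transcription of both sets is driven by the sterol regulatory element-binding proteins, which SCAP escorts from the endoplasmic reticulum to the Golgi for cleavage when membrane sterol is low, while the INSIG proteins hold SCAP back when sterol is high.

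Values are log2 of the deposited probe intensity, and a difference is called where its limma p-value, adjusted by Benjamini-Hochberg over all 18555 genes of the contrast, lies under 0.05. Array medians lay between 92.6 and 94.2 in intensity, and intensities of 93.6, the median of the table (log2 6.55), were close to background. Of the 30 genes, 26 were above that median in all 39 arrays, STARD4 in 11, MVK in 34, FADS2 in 35 and SREBF2 in 36. Levels of different probes are not compared with each other. In bulk RNA, fewer cells with a transcript and less of it per cell cannot be told apart.

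All 7 neuroendocrine markers analysed here were lower in H838 (summed log2 intensity 9.23 to 9.34) than in H209 (14.1 to 14.5). Of 8 epithelial and mesenchymal markers, VIM, CAV1, CD44, ANXA1 and LGALS1 were higher in H838, and the keratins KRT8, KRT18 and KRT19 were higher in H209. All 7 markers of fibroblasts, leukocytes and endothelium had means under 7 in both lines. In 4 H209 arrays the treatment markers went against the labels. The array labelled H209 DKFZ-608 8 h replicate 2 had MT1M, a metallothionein, at 6.56, against 12.17 in the array labelled H209 vehicle 8 h replicate 2. At 24 h the array labelled DKFZ-608 replicate 3 had 6.33, against 10.65 in the array labelled vehicle replicate 3. HMOX1, encoding haem oxygenase, showed the same arrangement at 8 h, with 8.09 in the DKFZ-608 and 12.47 in the vehicle array. Each H209 treatment result is therefore given with all arrays as labelled and without these 4 arrays, which were singled out by their expression, so that p-values without them are not independent evidence.

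The lines differed widely in the sterol pathway before any drug was added, and none of the 30 genes passed the test for DKFZ-608 against vehicle with all arrays as labelled. At 0 h, 24 of the 30 genes were called between H838 and H209, against a background of 45.8% of all genes. Among sterol enzymes, 13 of 16 were lower in H838 and 1 higher, with a median log2 difference of -0.79. Among fatty acid enzymes, 5 of 8 were lower and 1 higher, with a median of -0.33. Among regulators and transport proteins, 1 of 6 was lower and 3 were higher, with a median of 0.33, while the median of all genes tested was 0.01. Over all genes, 24.5% were called lower and 21.3% higher in H838. Without the 4 H209 arrays, none of them at 0 h, 24 of the 30 were called, against 46.8% of all genes.

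**Figure D1:**
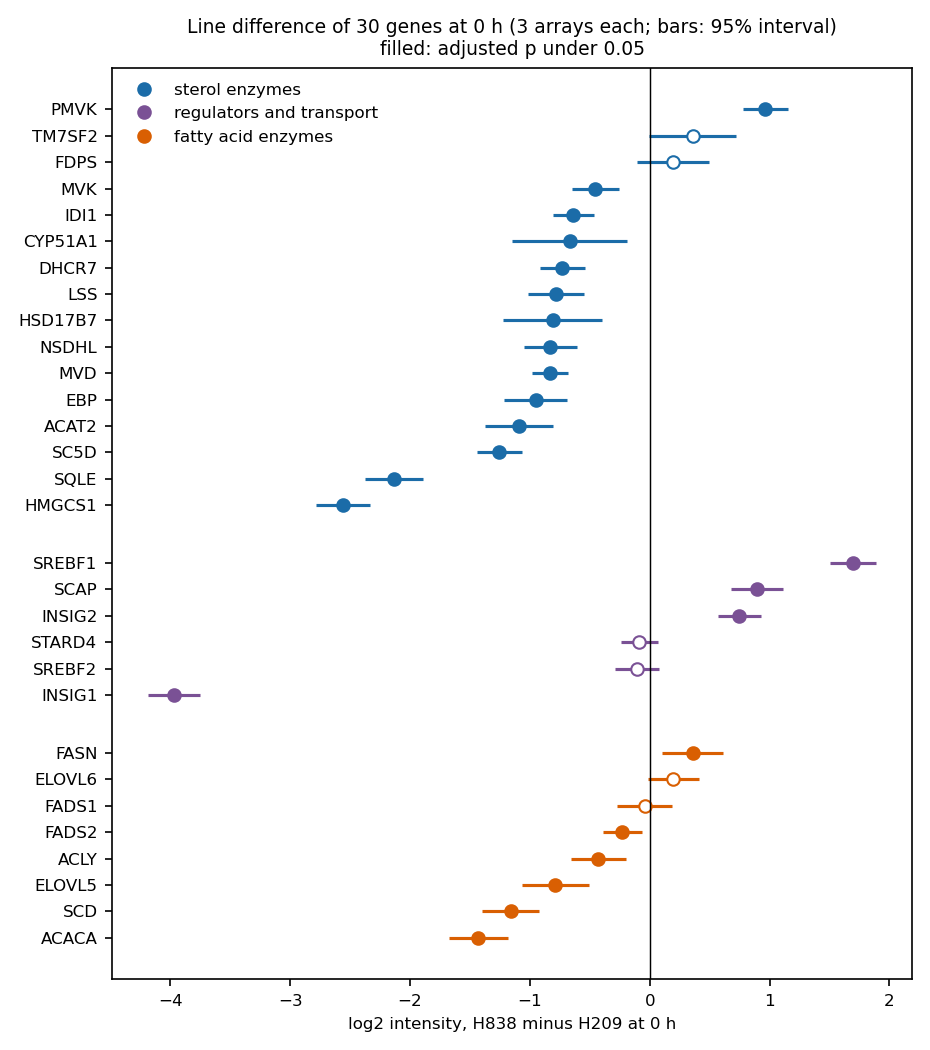
Log2 difference of H838 minus H209 at 0 h for the 30 genes, grouped as sterol enzymes, regulators and transport proteins, and fatty acid enzymes, with 95% intervals of the limma fit (3 arrays per line). INSIG1 lay at -3.97, HMGCS1 at -2.56 and SQLE at -2.13, and SREBF1 lay at the other end at 1.69.

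The widest difference was at INSIG1, which encodes the retention protein of SCAP in the endoplasmic reticulum and is itself a well-known target of the pathway's transcription factors. INSIG1 measured 8.00, 8.17 and 8.01 in the H838 arrays at 0 h, against 12.05, 11.996 and 12.04 in the H209 arrays. Its log2 difference was -3.97 (SE 0.105, limma adjusted p = 8.75e-26), or 15.6-fold lower in H838. Over all times and treatments the highest H838 array (8.55) was 2.88 below the lowest H209 array (11.43). A second INSIG1 probe, at a mean of only 6.93, gave -0.95 at 0 h, the same direction with a smaller size.

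Its homologue INSIG2, which serves the same retention role, ran the other way. INSIG2 measured 8.55, 8.47 and 8.30 in H838, against 7.71, 7.71 and 7.66 in H209 (log2 difference 0.75, SE 0.087, limma adjusted p = 6.03e-09). SREBF1, encoding the sterol regulatory element-binding protein best known for fatty acid genes, measured 8.77, 8.52 and 8.57 in H838 and 6.92, 6.998 and 6.86 in H209. It was 3.23-fold higher in H838 (log2 difference 1.69, SE 0.094, limma adjusted p = 8.1e-17). Of its other probes, which were close to background, one at a mean of 6.70 gave 0.48 and one at a mean of 6.45 gave -0.19. SCAP, the escort protein, measured 10.31, 10.14 and 10.19 in H838 and 9.17, 9.33 and 9.45 in H209 (log2 difference 0.90, SE 0.105). SREBF2, the family member best known for sterol genes, differed by -0.11 (adjusted p = 0.369) and STARD4, a soluble sterol carrier, by -0.09 (adjusted p = 0.404), both on dim probes.

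In the sterol arm, HMGCS1 and SQLE stood apart most. HMGCS1, which makes HMG-CoA, measured 8.71, 8.57 and 8.47 in H838, against 11.16, 10.95 and 11.31 in H209. The difference of -2.56 (SE 0.110, limma adjusted p = 7.57e-20) was 5.90-fold, and over all 39 arrays the lines stayed 1.63 apart. SQLE, the epoxidase that commits squalene to the sterol ring, measured 9.10, 9.02 and 8.74 in H838, against 11.04, 11.13 and 11.08 in H209, a difference of -2.13 (SE 0.120, limma adjusted p = 1.06e-16) or 4.38-fold. Its second probe, at a mean of 7.57, gave -1.35.

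SC5D, lathosterol oxidase, measured 7.94, 8.01 and 7.77 in H838 and 9.09, 9.22 and 9.16 in H209 (-1.26, SE 0.091). ACAT2, the cytosolic thiolase at the entry of the pathway, measured 8.90, 9.10 and 9.24 in H838 and 10.04, 10.45 and 10.03 in H209 (-1.09, SE 0.139), although a second probe near background (mean 6.77) gave -0.11. DHCR7, 7-dehydrocholesterol reductase at the last step, measured 8.43, 8.28 and 8.16 in H838, against 8.94, 8.83 and 9.29 in H209 (-0.73, SE 0.094). EBP (-0.95), MVD (-0.83), NSDHL (-0.83), HSD17B7 (-0.81), LSS (-0.78), CYP51A1 (-0.67), IDI1 (-0.64) and MVK (-0.45) were also lower in H838. The 2 other LSS probes, near background (means 6.50 and 6.49), gave -0.19 and 0.11, and the mean of all 3 LSS probes gave -0.29 (limma adjusted p = 0.000273).

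CYP51A1, lanosterol demethylase, had the widest spread among these, with 8.50, 8.96 and 8.94 in H838 and 8.96, 9.49 and 9.95 in H209, so that the groups shared a value near 8.96. Its limma adjusted p of 0.0194 was 0.188 without H209 replicate 3 (difference -0.43) and 0.118 without H838 replicate 1. PMVK, phosphomevalonate kinase, was the exception, at 8.93, 8.84 and 8.85 in H838 and 8.00, 7.98 and 7.75 in H209, a difference of 0.96 (SE 0.092). FDPS (0.20, adjusted p = 0.314) and TM7SF2 (0.36, adjusted p = 0.103) were not called.

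The fatty acid arm was mixed. ACACA, the carboxylase that forms malonyl-CoA, measured 8.03, 8.25 and 8.34 in H838, against 9.57, 9.64 and 9.70 in H209 (-1.43, SE 0.120, limma adjusted p = 3.11e-12). A second ACACA probe gave -1.42, and a further one, at a mean of 6.38, gave 0.09. SCD, the desaturase that makes oleate, measured 10.98, 10.95 and 10.69 in H838, against 11.79, 12.03 and 12.28 in H209 (-1.16, SE 0.117).

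ELOVL5, an elongase of polyunsaturated fatty acids, measured 9.27, 9.54 and 9.32 in H838 and 9.92, 10.29 and 10.29 in H209 (-0.79, SE 0.138). ACLY, which supplies cytosolic acetyl-CoA, measured 10.01, 9.86 and 9.65 in H838 and 10.32, 10.22 and 10.26 in H209 (-0.43, SE 0.113). The FADS2 difference was -0.23 (SE 0.080, limma adjusted p = 0.0187) on a probe near background, and it missed the threshold when H209 replicate 1 (0.0591), H209 replicate 3 (0.0607) or H838 replicate 2 (0.0877) was left out.

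Fatty acid synthase itself did not follow ACACA and SCD. FASN measured 10.11, 9.93 and 10.10 in H838, against 9.67, 9.59 and 9.80 in H209, a difference of 0.36 (SE 0.126, limma adjusted p = 0.0189). That call was lost without H209 replicate 2 (adjusted p = 0.0789), H838 replicate 1 (0.0665) or H838 replicate 3 (0.0604). FADS1, the delta-5 desaturase, measured 10.00, 10.16 and 9.95 in H838 and 10.14, 9.98 and 10.13 in H209, a difference of -0.04 with an interval of -0.27 to 0.19. ELOVL6 differed by 0.20 (adjusted p = 0.129).

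Set side by side, the median of the sterol enzymes was 0.47 below that of the fatty acid enzymes in the line difference (-0.47). The SD given for this gap, 0.107, was taken over the 3 H838 arrays and leaves out the spread of the H209 arrays. This gap shrank to -0.34 without H209 0 h replicate 3 and to -0.31 when all probes of a gene were averaged. Among 14 other sterol genes tested, 8 were lower and 4 higher in H838, led by MSMO1, a sterol C4 methyl oxidase (-2.48), MYLIP, a ligase that degrades lipoprotein receptors (-2.22), TMEM97 (-1.40) and NR1H3, a liver X receptor (-1.38). Among 22 other fatty acid genes, 7 were lower and 6 higher, led by ACSL4 (1.72), ACACB (1.46), ACSL1 (-1.30) and ELOVL2 (-1.20).

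The sign of H838 minus H209 was the same in all 7 pairs of matching groups for 26 of 30 genes, against 54.2% of all genes, and the other 4 were STARD4, SREBF2, ELOVL6 and FADS1. The sizes varied, as DHCR7 differed by -0.73 at 0 h and -0.10 in vehicle arrays at 24 h, SCD by -1.16 and -0.42 and ACAT2 by -1.09 and -0.32, while INSIG1 differed by -3.97 and -3.42. For 16 of 30 genes the values of the 20 H838 arrays and the 19 H209 arrays did not overlap at all, against 28.7% of all genes. The 12 that were lower in H838 (background 15%) were HMGCS1, MVK, MVD, IDI1, SQLE, NSDHL, HSD17B7, SC5D, INSIG1, ACACA, SCD and ELOVL5. The 4 that were higher (background 13.7%) were PMVK, INSIG2, SREBF1 and SCAP. Gaps between the lines were 1.29 for SQLE, 1.08 for SC5D and 0.66 for ACACA, and only 0.03 for SCD.

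HMGCS1 had a lowest, median and highest value of 8.46, 8.72 and 8.96 over the H838 arrays, against 10.60, 10.88 and 11.31 over the H209 arrays. SREBF1 ran 8.52, 8.77 and 9.10 in H838 and 6.72, 6.90 and 7.02 in H209. FASN ran 9.74, 10.10 and 10.21 in H838 and 8.86, 9.44 and 9.80 in H209, overlapping by a narrow margin. FADS1 ran 9.92, 10.25 and 10.66 in H838 and 9.60, 9.96 and 10.20 in H209, with broad overlap.

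**Figure D2:**
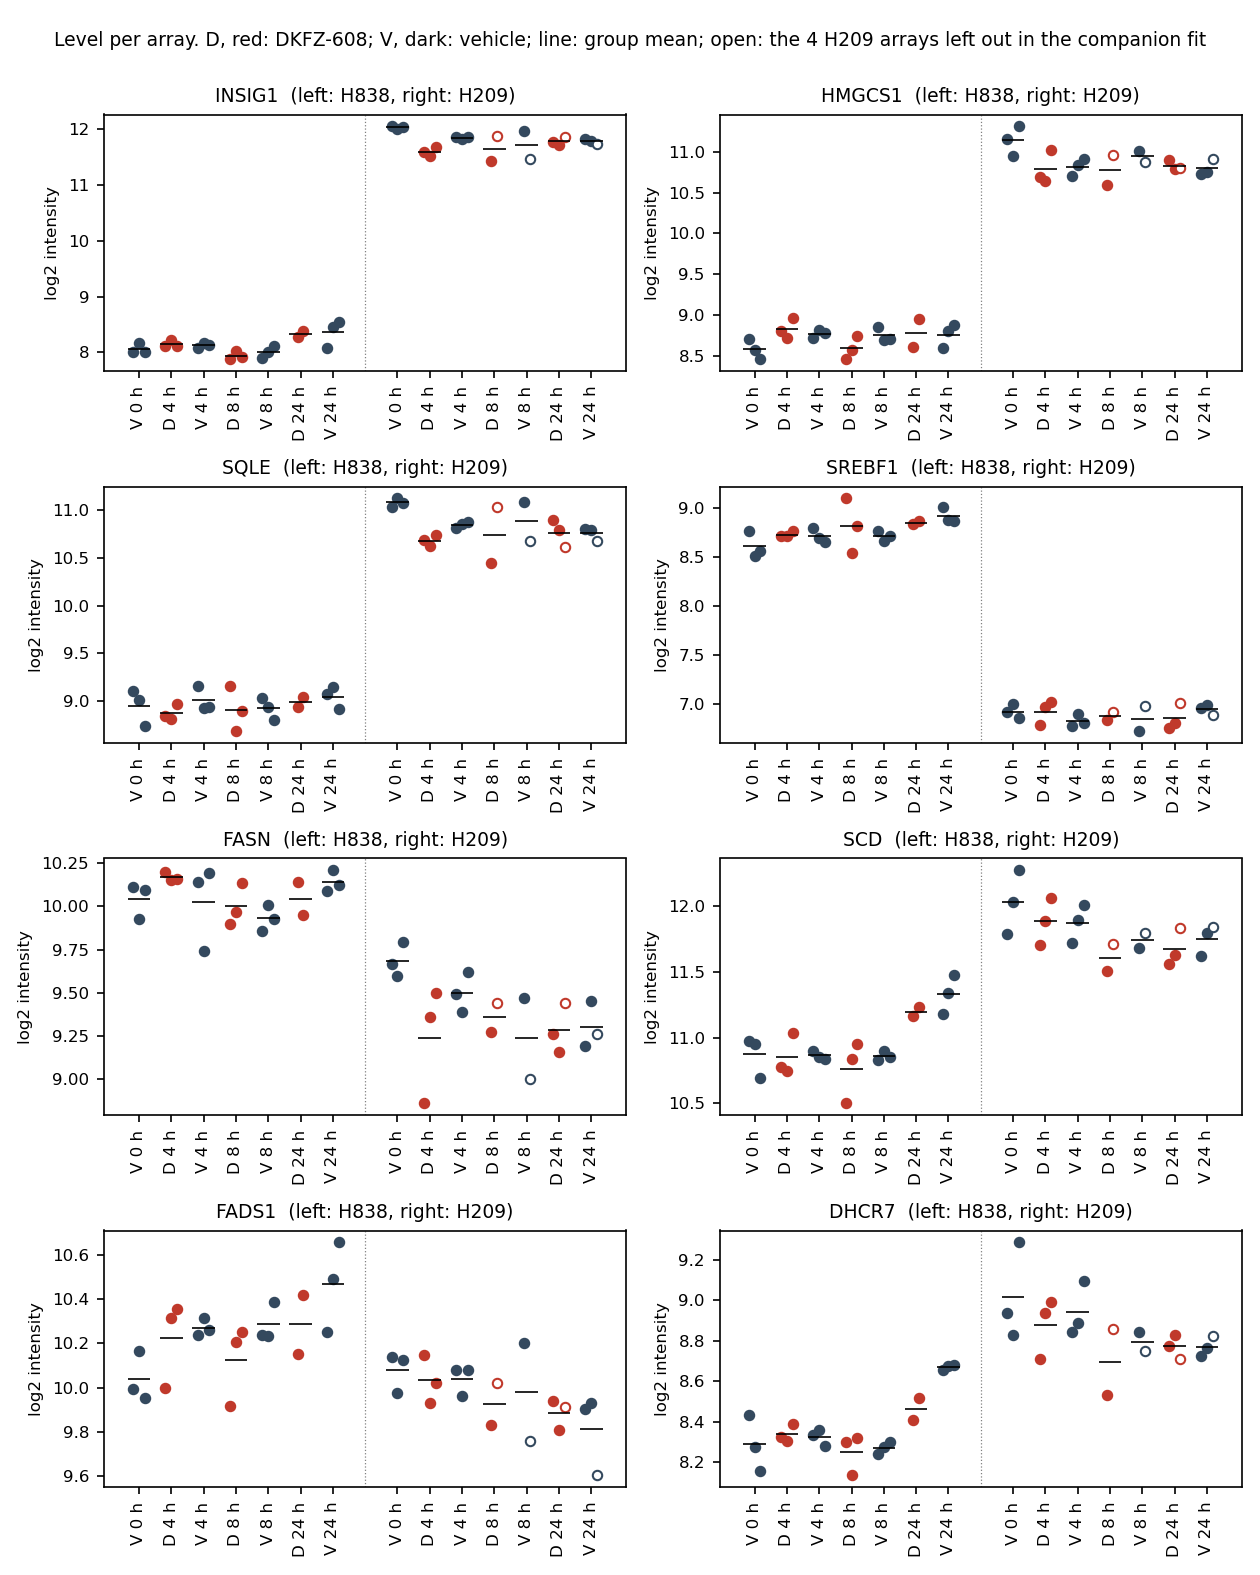
Log2 intensity of selected genes in each array, by line, treatment and time. The 4 H209 arrays whose treatment markers went against their labels are drawn apart. H838 arrays of INSIG1 sit between 7.87 and 8.55 and H209 arrays between 11.43 and 12.05 at every time, and FADS1 overlaps between the lines.

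The promoter sequences of the 2 groups of non-overlapping genes are shown for their counts of one short sequence, the CCAAT box, which the factor NF-Y binds. RefSeq promoter windows (GRCh38.p14, the 250 bases before the start) were matched by symbol for 27 of the 30 genes, ACAT2, SQLE and FASN having none. CCAAT, on either strand, occurred in 19 of 27, against 37.0% of all 27305 genes with a window. It occurred in all 11 genes with a window that were lower in H838 without overlap, in 0 of the 4 that were higher, and in 8 of the other 12. Genes with several annotated starts were counted where any of their windows held the motif. Of the genes counted, 1 window each of HMGCS1, ACACA, IDI1 and DHCR7 held no CCAAT. Among all tested genes with a window, it was in 45.6% of those lower without overlap, 39.8% of those higher and 39.8% of the rest. CACGTG (the E-box) was in 4 of 27, SC5D, INSIG1, SCAP and ELOVL5, against 7.73% of all genes. TCACNCCAC (a form of the sterol regulatory element) was in 1 of 27, SREBF2, against 1.09% of all genes. These counts describe letters in fixed windows and carry no test. The groups were drawn from these same data, and the motifs were chosen with earlier results known. The windows of INSIG1 (chr7:155297628-155297877, plus strand), MVD (chr16:88663092-88663341, minus strand), SREBF1 (chr17:17836987-17837236, minus strand) and INSIG2 (chr2:118088221-118088470, plus strand, 1 of its 2 windows) read 5′ to 3′ toward the gene, with motif matches on either strand in capitals. A CCAAT box on the other strand reads as ATTGG.
INSIG1: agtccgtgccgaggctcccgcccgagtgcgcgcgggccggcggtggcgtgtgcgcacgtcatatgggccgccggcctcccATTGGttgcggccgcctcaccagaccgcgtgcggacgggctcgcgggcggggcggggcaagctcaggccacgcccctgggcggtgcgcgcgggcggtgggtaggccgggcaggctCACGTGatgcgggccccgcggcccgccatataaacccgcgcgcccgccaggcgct
MVD: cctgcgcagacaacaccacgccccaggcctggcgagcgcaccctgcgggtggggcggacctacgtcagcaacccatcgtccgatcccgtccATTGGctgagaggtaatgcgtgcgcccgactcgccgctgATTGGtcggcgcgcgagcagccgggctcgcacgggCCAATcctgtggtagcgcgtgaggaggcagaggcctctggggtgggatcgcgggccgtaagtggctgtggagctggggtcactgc
SREBF1: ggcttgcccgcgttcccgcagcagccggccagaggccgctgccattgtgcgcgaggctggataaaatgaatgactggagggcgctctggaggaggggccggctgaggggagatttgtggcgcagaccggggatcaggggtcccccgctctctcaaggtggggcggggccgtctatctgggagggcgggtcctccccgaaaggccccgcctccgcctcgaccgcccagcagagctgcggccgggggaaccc
INSIG2: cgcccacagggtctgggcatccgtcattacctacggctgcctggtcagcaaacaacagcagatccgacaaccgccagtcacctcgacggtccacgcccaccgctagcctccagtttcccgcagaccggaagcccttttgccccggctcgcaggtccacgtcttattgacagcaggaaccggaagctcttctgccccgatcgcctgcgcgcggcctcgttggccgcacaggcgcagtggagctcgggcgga
INSIG1 holds 1 CCAAT box and 1 E-box, MVD holds 3 CCAAT boxes, and SREBF1 and INSIG2 hold none of the 3 motifs in these windows.

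**Figure D3:**
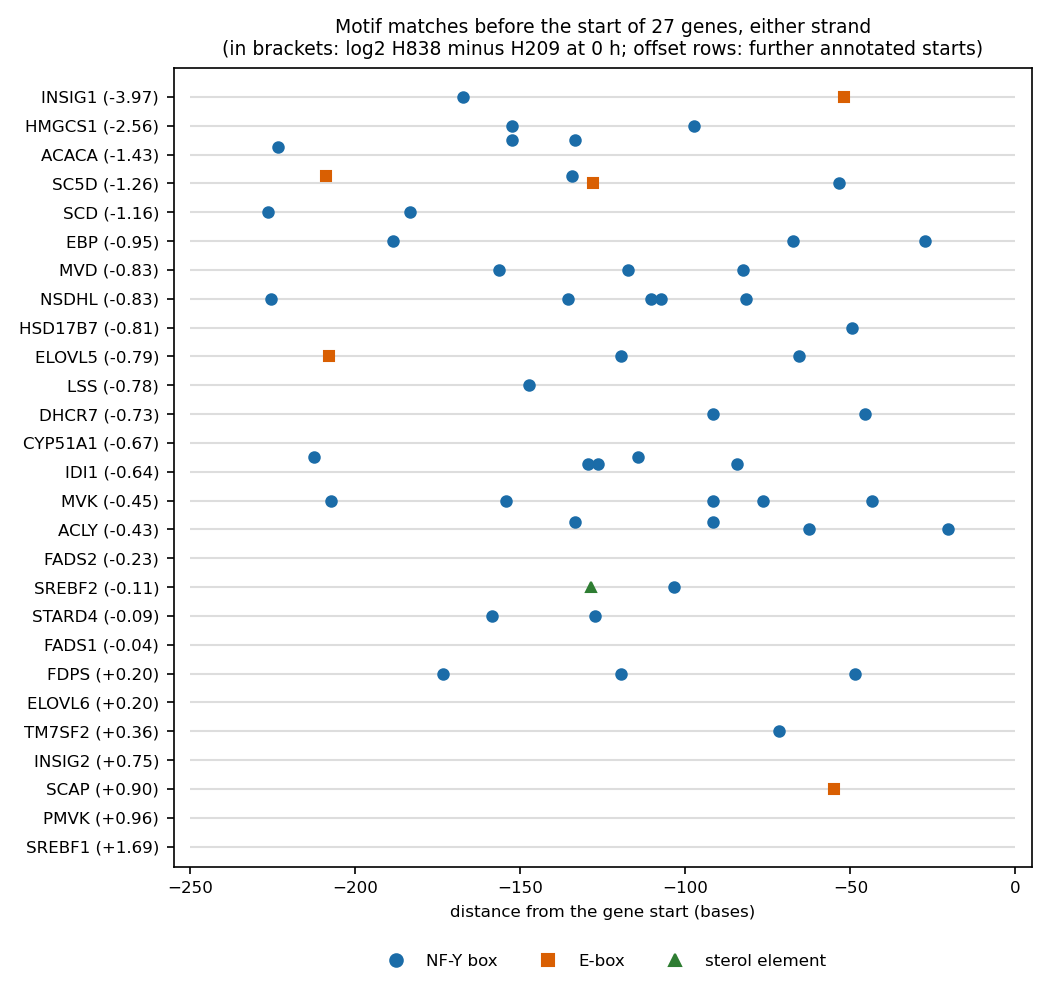
Positions of matches to the CCAAT box, the E-box and the sterol regulatory element in the promoter windows of the 27 genes, as distance in bases before the start, with genes ordered by their log2 difference of H838 minus H209 at 0 h, given in brackets, and further annotated starts of a gene drawn as offset rows. Genes from INSIG1 (-3.97) down to DHCR7 (-0.73) each carry a CCAAT box at 1 or more starts, and INSIG2, SCAP, PMVK and SREBF1 at the foot carry none.

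Whether DKFZ-608 altered these genes was asked against the time-matched vehicle. In H838, none of the 30 was called at 4, 8 or 24 h or for the mean of the times, and 0% of all genes were called in each of those contrasts by limma. Without the 4 H209 arrays, which changes only the estimate of the spread, 0 of 30 were called as well (background 0.0216% at 4 h, 0.0269% at 8 h, 0.0108% at 24 h and 0.0216% for the mean), and 0 of 30 with the spread of the H838 arrays alone (0.0269% at 8 h). At an unadjusted p under 0.05, 1 of 30 passed at 4 h, 0 at 8 h and 0 at 24 h, against 493, 638 and 562 of all genes. The medians of sterol enzymes were 0.01, -0.04 and -0.01 at 4, 8 and 24 h, and those of fatty acid enzymes -0.01, -0.07 and -0.08. HSD17B7 at 4 h (0.25) and TM7SF2 at 24 h (-0.33) were the widest differences in either direction. The intervals were -0.19 to 0.24 for INSIG1 and -0.38 to 0.11 for SQLE at 4 h, and -0.39 to 0.19 for FASN and -0.40 to 0.13 for SCD at 24 h. The treatment marker MT1M measured 8.42, 8.89 and 8.22 in the same H838 DKFZ-608 arrays at 4 h, against 7.50, 7.20 and 7.40 in vehicle arrays.

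The H838 groups at 24 h did not overlap for 8 of 30 genes, against 18.4% of all genes, with 2 DKFZ-608 arrays against 3 vehicle arrays. Values of PMVK, MVD, LSS, DHCR7, SREBF1 and ACLY lay lower with DKFZ-608, and those of MVK and ELOVL6 lay higher. DHCR7 measured 8.41 and 8.52 in DKFZ-608 arrays, against 8.65, 8.68 and 8.68 in vehicle arrays, a difference of -0.21 (SE 0.105, limma adjusted p = 1.0).

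In H209 with all arrays, none of the 30 was called at 4 h (background 0.652%), at 8 or 24 h (background 0%) or for the mean of the times (0%). At 8 h, 1 of the 2 arrays in each group had treatment markers against its label, and at 24 h 1 of the 3. A difference with DKFZ-608 could thus cancel in these contrasts as labelled. At an unadjusted p under 0.05, 2 passed at 4 h, 0 at 8 h and 1 at 24 h, against 1394, 396 and 439 of all genes. No array of the 4 h comparison went against its label. There the groups did not overlap for 4 of 30 genes, against 14.2% of all genes. INSIG1 measured 11.58, 11.52 and 11.67 with DKFZ-608, against 11.86, 11.81 and 11.86 with vehicle (-0.26, SE 0.105, limma adjusted p = 0.477). SQLE measured 10.69, 10.63 and 10.74 with DKFZ-608 and 10.81, 10.85 and 10.87 with vehicle (-0.16, adjusted p = 0.867). TM7SF2 lay lower with DKFZ-608 as well (-0.25), and ELOVL5 measured 10.22, 10.31 and 10.24 with DKFZ-608, against 9.91, 10.09 and 10.00 with vehicle (0.26, adjusted p = 0.712). None of these differences passed the test.

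At 8 h the 2 arrays per H209 group disagreed along the lines of their treatment markers in SQLE, INSIG1 and TM7SF2, picked as examples. SQLE measured 10.45 and 11.04 in the arrays labelled DKFZ-608 replicates 1 and 2, against 11.09 and 10.68 in those labelled vehicle replicates 1 and 2. INSIG1 measured 11.43 and 11.87 in DKFZ-608 and 11.97 and 11.47 in vehicle arrays. In both genes, the low value of each group was in the array with MT1M near 12, at 12.10 in DKFZ-608 replicate 1 and 12.17 in vehicle replicate 2. TM7SF2 did the same, with 8.95 and 9.34 in DKFZ-608 and 9.37 and 9.03 in vehicle arrays. Not every gene of the list did so. IDI1 measured 8.81 and 8.82 in DKFZ-608 and 8.74 and 9.05 in vehicle arrays.

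Without the 4 arrays, the 8 h comparison rested on 1 array per group, whose spread was taken from the other groups. SQLE then differed by -0.64 (SE 0.164, limma adjusted p = 0.0414) and INSIG1 by -0.54 (SE 0.143, adjusted p = 0.0478), 2 of 30 genes against 1.42% of all genes. Both were lower in the 1 DKFZ-608 array than in the 1 vehicle array. The second SQLE probe gave -0.37, and the second INSIG1 probe -0.07. LSS, lanosterol synthase, differed by -0.53 and ELOVL5 by 0.44 without passing (adjusted p = 0.134 and 0.331). With only 1 of the 8 h arrays left out the sign of SQLE and INSIG1 could turn. SQLE lay at 0.06 without vehicle replicate 1 and at 0.16 without DKFZ-608 replicate 1. Each of these omissions left its group with only the array whose treatment markers went against its label. The other 2 omissions kept the sign in SQLE and INSIG1.

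At 24 h MVD, the decarboxylase of mevalonate diphosphate, measured 7.43, 7.27 and 7.40 in the DKFZ-608 arrays, against 7.83, 7.57 and 7.55 in the vehicle arrays. The groups did not overlap as labelled, where 1 of 30 genes had separate values against 5.73% of all genes. In the replicate 3 pair, whose treatment markers went against their labels, MVD was lower in the array labelled DKFZ-608 (7.40 against 7.55). MVD thus followed the labels in that pair and not the treatment markers. At 8 h without the 4 arrays, with 1 array per group, MVD lay the other way (0.15). Without the 4 arrays (2 against 2) MVD differed by -0.35 (SE 0.087, limma adjusted p = 0.0241), 1 of 30 genes against 1.66% of all. SQLE (0.04) and INSIG1 (-0.07) did not pass at 24 h. At 4 h no gene of the list was called without the 4 arrays either, against 1.88% of all genes, with 3 arrays in each group as before.

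For the mean of the 3 times without the 4 arrays, INSIG1 (-0.29, limma adjusted p = 0.00422), LSS (-0.25, adjusted p = 0.0416) and SQLE (-0.25, adjusted p = 0.0424) were lower with DKFZ-608, 3 of 30 genes against 4.87% of all. Of the 30, 25 lay below 0, against 55.7% of all genes. Arm medians were small, at -0.07 for sterol enzymes, -0.05 for regulators and transport proteins and -0.09 for fatty acid enzymes. Other probes of these genes gave smaller differences for the same mean, at -0.05 for the second INSIG1 probe, -0.03 for both further LSS probes and -0.21 for the second SQLE probe.

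The treatment effect of H838 minus that of H209 was called for 0 of 30 genes at 4 h (background 0.0485%), 8 h (0%) and 24 h (0%). Without the 4 arrays it was also called for 0 of 30, against 0.717%, 0.776% and 0.679% of all genes at 4, 8 and 24 h. SQLE at 8 h had the smallest adjusted p without the 4 arrays (0.62, SE 0.189, limma adjusted p = 0.164). A difference of the lines in their response was thus not shown for any of these genes.

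**Figure D4:**
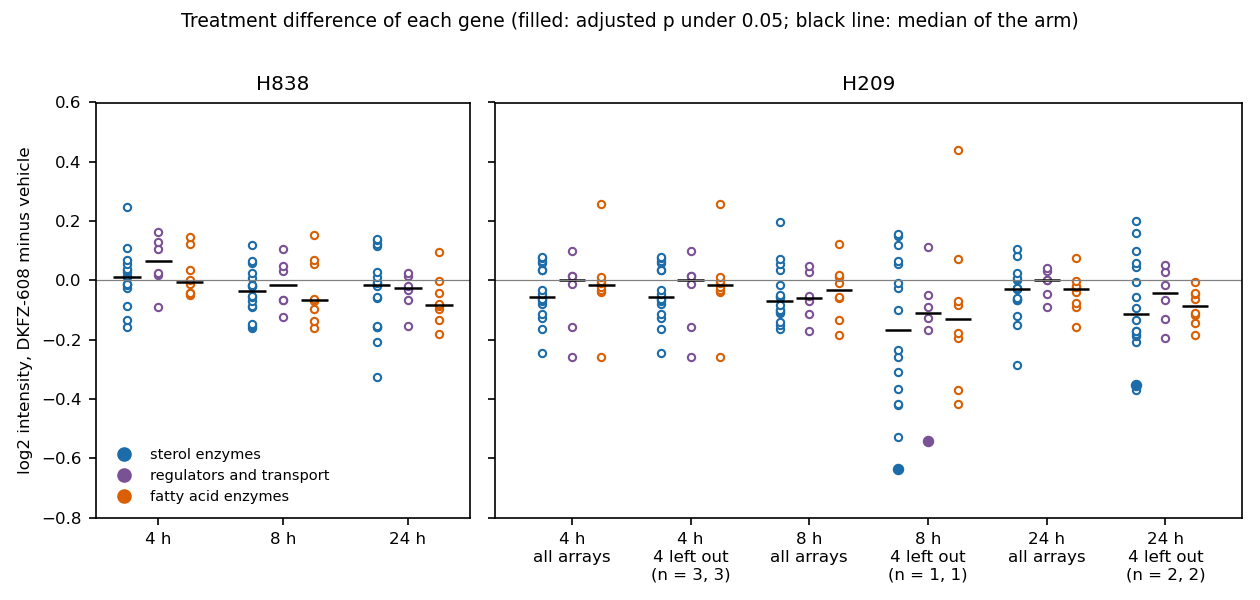
Log2 difference of DKFZ-608 minus vehicle for the 30 genes at 4, 8 and 24 h in H838 and H209, with H209 shown for all arrays and without the 4 arrays. With all arrays no gene was called, and without the 4 arrays the called genes were SQLE (-0.64) and INSIG1 (-0.54) at 8 h and MVD (-0.35) at 24 h.

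The vehicle cultures themselves were compared with 0 h. These contrasts share the 0 h arrays with each other and the vehicle arrays with the treatment contrasts. In H838, 3 of 30 genes were higher at 24 h than at 0 h and none lower, against 1.89% of all genes. SCD measured 11.18, 11.34 and 11.48 at 24 h, against 10.98, 10.95 and 10.69 at 0 h (0.46, SE 0.117, limma adjusted p = 0.0326). FADS1 measured 10.25, 10.49 and 10.66 at 24 h and 10.00, 10.16 and 9.95 at 0 h (0.43, SE 0.114, adjusted p = 0.0421). DHCR7 measured 8.65, 8.68 and 8.68 at 24 h and 8.43, 8.28 and 8.16 at 0 h (0.38, SE 0.094, adjusted p = 0.0228), and its second probe gave 0.39.

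In each of the 3 genes every 24 h array lay above every 0 h array, but the calls were near the threshold. Of the 30 genes, DHCR7 alone was called without 0 h replicate 1, while SCD (0.54), FADS1 (0.54) and INSIG1 (0.44) were called without 24 h replicate 1, and 0 without 0 h replicate 2, 0 h replicate 3, 24 h replicate 2 or 24 h replicate 3. ACAT2 (0.45, adjusted p = 0.0991), SREBF1 (0.30, adjusted p = 0.106) and INSIG1 (0.30, adjusted p = 0.169) did not pass, and HMGCS1 (0.18), SQLE (0.09) and FASN (0.10) were smaller still. ACAT2 passed when the spread was taken from H838 alone (adjusted p = 0.0369) (4 of 30 genes, against 1.82% of all). Without the 4 H209 arrays both ACAT2 (0.0317) and INSIG1 (0.041) passed (5 of 30 genes, against 2.51% of all).

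Both arms shared the direction in H838. Log2 differences were above 0 in 15 of 16 sterol enzymes, 5 of 6 regulators and transport proteins and 7 of 8 fatty acid enzymes, with medians of 0.11, 0.12 and 0.09. Of all genes, 9304 of 18555 were above 0. The 24 h and 0 h arrays did not overlap for 10 of 30 genes, against 15.9% of all genes, with 9 higher at 24 h and ELOVL6 lower. Of the other genes, 9 of 14 sterol genes (median 0.08) and 10 of 22 fatty acid genes (median -0.003) lay above 0, and ACACB (-0.40, adjusted p = 0.00779) was the only one called. The H838 arrays with DKFZ-608 at 24 h had SCD at 11.16 and 11.23 and FADS1 at 10.15 and 10.42, within or just below the range of the vehicle arrays of that time. DHCR7, at 8.41 and 8.52, lay below all 3 vehicle arrays of that time (8.65 to 8.68). At 4 and 8 h, 0 of 30 genes were called against 0 h in H838 (background 0.00539% and 0.587%), with 1 and 4 at an unadjusted p under 0.05.

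In H209 vehicle arrays, 0 of 30 genes were called against 0 h at 4, 8 or 24 h, where 0%, 0.0108% and 0.0162% of all genes were called by limma. At an unadjusted p under 0.05, 2 passed at 4 h, 4 at 8 h and 10 at 24 h, against 439, 666 and 697 of all genes. Log2 differences were below 0 in 23, 26 and 26 of 30 genes at 4, 8 and 24 h, against 9196, 9709 and 9653 of 18555 genes. Without the 4 arrays, which left 1 vehicle array at 8 h, 19 of 30 lay below 0 at 8 h, against 9426 of 18555 genes. The other sterol genes did not share this at 24 h, with 2 of 14 below 0 and a median of 0.05, whereas 17 of 22 other fatty acid genes lay below 0 (median -0.06). At 24 h the medians were -0.12 for sterol enzymes, -0.03 for regulators and transport proteins and -0.19 for fatty acid enzymes, with 13 of 16, 5 of 6 and 8 of 8 below 0.

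FASN in H209 vehicle arrays measured 9.67, 9.59 and 9.80 at 0 h, 9.49, 9.39 and 9.62 at 4 h, 9.47 and 9.003 at 8 h and 9.19, 9.45 and 9.26 at 24 h. The lowest of these, 9.003, was in the 8 h array whose treatment markers went against its label. The FASN difference at 24 h was -0.38 (interval -0.64 to -0.13, adjusted p = 1.0). HMGCS1 measured 11.16, 10.95 and 11.31 at 0 h, 10.70, 10.83 and 10.92 at 4 h, 11.01 and 10.88 at 8 h and 10.73, 10.76 and 10.92 at 24 h, a difference of -0.34 at 24 h. INSIG1 measured 12.05, 11.996 and 12.04 at 0 h, 11.86, 11.81 and 11.86 at 4 h, 11.97 and 11.47 at 8 h and 11.83, 11.79 and 11.73 at 24 h. Every later INSIG1 array lay below every 0 h array, and the lowest of them, 11.47, was the 8 h array whose treatment markers went against its label.

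At 24 h the H209 vehicle groups did not overlap for 7 of 30 genes, all lower than at 0 h, against 8.68% of all genes in either direction and 4.86% lower. These were HMGCS1, IDI1, SQLE, DHCR7, INSIG1, FASN and FADS1. Without the 4 arrays, 24 of 30 lay below 0 at 24 h, and 0 were called at 4, 8 or 24 h (background 0.00539%, 0.0162% and 0.0593%).

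The difference between the lines in this change over 24 h was tested directly. H838 minus H209 was above 0 for 27 of 30 genes, against 9530 of 18555, with medians of 0.24 for sterol enzymes, 0.15 for regulators and transport proteins and 0.36 for fatty acid enzymes. Other genes of the pathways lay nearer 0, with 5 of 14 other sterol genes above 0 (median -0.06) and 13 of 22 other fatty acid genes (median 0.03). One gene, DHCR7, was called (1 of 30, against 0.162% of all genes), at 0.63 (SE 0.132, limma adjusted p = 0.0349), and 12 of 30 passed at an unadjusted p under 0.05, against 1487 of all genes. In H209 its arrays read 8.72, 8.76 and 8.82 at 24 h and 8.94, 8.83 and 9.29 at 0 h, against the higher 24 h values of H838 given above. SCD (0.74, adjusted p = 0.053), FADS1 (0.70, adjusted p = 0.0622), ACAT2 (0.77, adjusted p = 0.102) and INSIG1 (0.55, adjusted p = 0.13) did not pass. The DHCR7 call held without the 4 arrays (0.66, adjusted p = 0.0333) and was lost without any one of 9 of the 12 arrays of the contrast, with adjusted p-values of 0.0549 to 0.107.

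**Figure D5:**
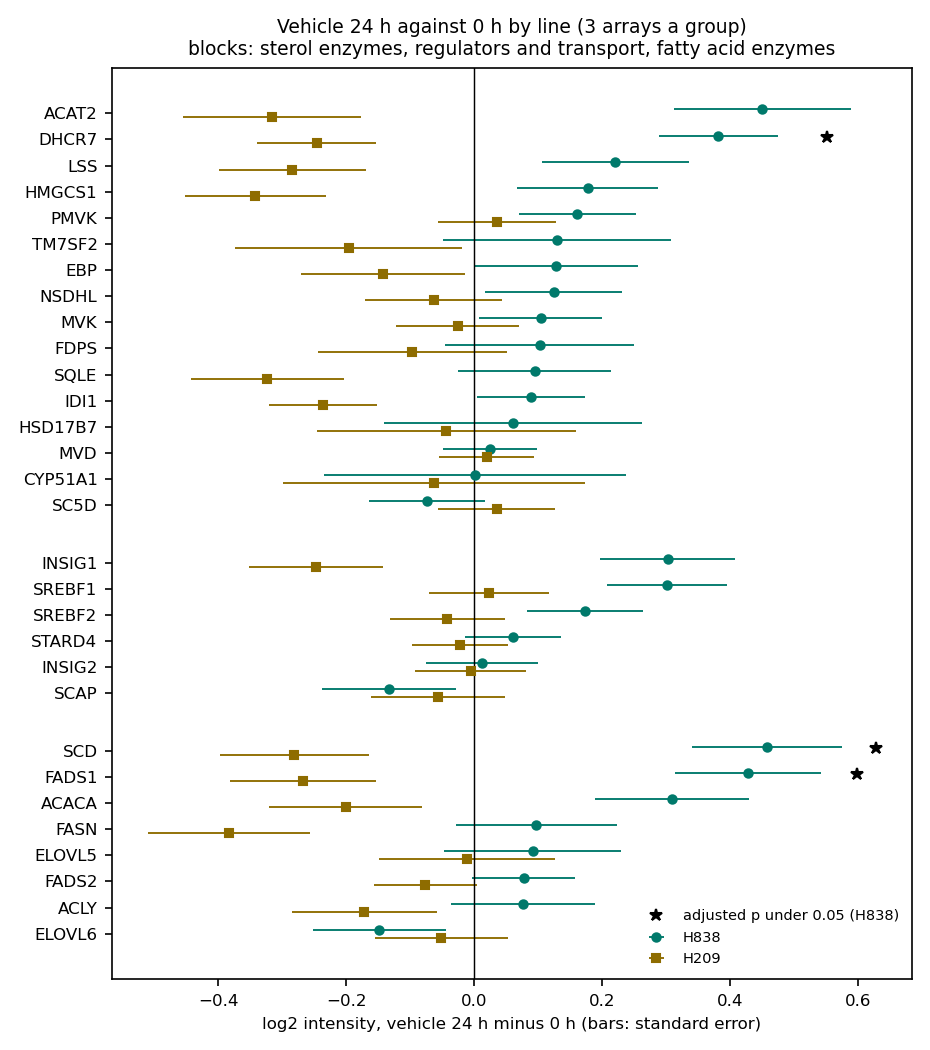
Log2 difference of vehicle at 24 h minus 0 h for the 30 genes in H838 and in H209 (3 arrays per group). Bars show the standard error of the limma fit, not a 95% interval. In H838, 27 of 30 genes lie above 0, led by SCD at 0.46, and in H209, 26 of 30 lie below 0, led by FASN at -0.38.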

How the data were processed

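RNA of 2 lung cancer cell lines was extracted with a column kit, amplified to biotin-labelled cRNA and detected with streptavidin-Cy3 on bead arrays, per the labels' protocols. The authors deposited 1 linear-scale intensity per probe, and how the authors normalized them is not given in the sources used here. Of 48107 probes, 30113 had 1 gene symbol, 8 several and 17986 none, and 20 with empty cells were left out. Values under the percentile 1 (intensity 75.8) were set to it, log2 of the deposited intensity was taken, and probes above the table's median in at least 2 arrays were kept (42924). The probe with the highest mean stood for a gene, and symbols were updated through gene identifiers (SC5DL is given as SC5D).

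A model of 14 group means over 39 arrays was fitted to each of 18555 genes in R 4.3.3 with the package limma 3.58.1 (25 residual and 6.79 prior degrees of freedom). A companion fit left out 4 H209 arrays (21 residual degrees of freedom). All tests were two-sided. Within each contrast, Benjamini-Hochberg adjustment ran over all genes, with a threshold of 0.05. Genes, lists and motifs were chosen with earlier results of these data known. All 32 members were followed in every contrast, with values per array for called members (up to 4 per group of genes, in order of size) and for INSIG1, HMGCS1, SQLE, FASN, SCD and FADS1, beside further examples chosen after their values were seen. Nothing in the labels says that replicates came from separate cultures, so p-values measure the spread between these arrays, whose number limits the precision. The time of each array was taken from its title, because the time field disagreed for 1 H209 vehicle array and was absent for another. Same-numbered arrays deviated together (correlations over 0.1) in all 3 pairs for H209 DKFZ-608 and vehicle at 4 h (0.14 to 0.551). The same held for H209 vehicle at 4 and 0 h (0.252 to 0.557) and H838 vehicle at 8 and 0 h (0.136 to 0.242). Of the comparisons with 2 pairs, both pairs were over 0.1 for H838 DKFZ-608 and vehicle at 24 h (0.225 and 0.261). Both were also over 0.1 for H209 vehicle at 8 and 0 h (0.148 and 0.389). In each of these comparisons 0 of 30 genes were called with or without a block for the number. On simulated data for H838 vehicle at 24 h minus 0 h, 99% of 200 genes changed by 1 on the log2 scale were recovered. Over the 18555 genes, 4.35% of calls were false. Smaller changes, such as the 0.38 to 0.46 of the genes called in that contrast, were not simulated. The alternatives tried were the 4 arrays left out, the spread of 1 line, the replicate block, quantile normalization, no filter, the mean of all probes, no floor and each array left out in turn.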

Additional observations from a re-analysis of the deposited data

Results flagged for a closer look

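DHCR7, 7-dehydrocholesterol reductase, differed between the lines in its change over 24 h in vehicle cultures, by a test of the difference itself that did not hold without single arrays. Its log2 change at 24 h minus 0 h in H838 exceeded that in H209 by 0.628 (SE 0.132, limma adjusted p = 0.0349). All 3 H838 arrays at 24 h lay above those at 0 h, and all 3 H209 arrays at 24 h lay below those at 0 h. In H209 the separation was narrow, with 8.824 in 24 h replicate 3 against 8.827 in 0 h replicate 2. A second DHCR7 probe gave 0.53. The call was lost when any one of 9 of the 12 arrays was left out (adjusted p of 0.0549 to 0.107). Of the H209 arrays at 24 h, replicate 3 had treatment markers against its label, and without the 4 such arrays the value was 0.66 (adjusted p = 0.0333).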

How the results depend on the processing

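At 0 h between 22 and 25 of 30 genes were called under every alternative tried. Without the 4 H209 arrays, calls in H209 with DKFZ-608 numbered 2 at 8 h, 1 at 24 h and 3 over the times averaged, against 0 with all arrays, and calls in H838 vehicle at 24 h against 0 h numbered 5, against 3. With the replicate number as a replicate block, that H838 count was 6. The count for the difference of the vehicle changes between the lines was 6, against 1. Same-numbered vehicle arrays at 24 and 0 h had correlations of 0.0466 to 0.17 in H838 and 0.0281 to 0.34 in H209. Whether the numbers mark pairs cannot be settled from these values. The block moved no other count by over 1.5 times. Leaving out 1 array at a time gave 0 to 3 calls for H838 at 24 h and 0 to 3 for the difference between the lines. The gap between sterol and fatty acid medians at 0 h was -0.31 with the mean of all probes and -0.55 to -0.34 without single arrays. In H209 at 8 h, without single arrays, SQLE ran from -0.43 to 0.155 (0.062 with vehicle replicate 1 left out, 0.155 with DKFZ-608 replicate 1 left out). INSIG1 ran from -0.32 to 0.182 (0.182 and 0.153 with the same arrays left out). Each of these omissions left its group with only the array whose treatment markers went against its label. LSS over the times averaged ran from -0.16 to 0.0036, above 0 without DKFZ-608 8 h replicate 1. The cause of these shifts was not tested. Of 345 alternatives for 28 called values, 24 of them line differences at 0 h, 312 kept the direction and the call, 33 lost the call and 0 turned. The calls for vehicle changes over 24 h were less stable. With 1 array left out, DHCR7, SCD and FADS1 in H838 each lost the call in 5 of 6 cases. The DHCR7 difference between the lines lost it in 9 of 12. Of 130 for 8 uncalled values, 114 stayed uncalled in the same direction, 11 passed the threshold and 5 turned. Signal near background limits what can be seen of STARD4, MVK, FADS2 and SREBF2.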
